A study of Mus musculus with 8 samples.

Results

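The comparison described here set 2 phospho-S6 immunoprecipitates (RS IP) against the 2 matching whole-tissue libraries (RS input) from the lateral septum (LS) of mice that had been restrained for 1 h. These 4 libraries were chosen by their labels out of 8 in the series, and all 24946 gene symbols of the files entered, of which 14365 reached 1 TPM (transcripts per 1000000 transcripts) in at least 2 of the 8 libraries and were tested. The mice were C57Bl/6J with no transgene named, so no promoter or Cre line selected the cells. They spent 1 h in a flexible restraint cone and, per the labels, were killed 1 h afterwards, while naive mice stayed in the home cage. Each library came from a pool of 4 to 6 mice. The labels speak of 3 pools a group, of which 2 are analysed here. Ribosomes were captured with 4 µg of polyclonal antibody to phosphorylated ribosomal protein S6 (pS6), and RNA with an integrity number above 8 was amplified and sequenced. No immunoprecipitate made without the pS6 antibody was analysed here, so the comparison holds whatever else stays on the beads.

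Ribosomal protein S6 sits on the small ribosomal subunit and is phosphorylated by S6 kinases downstream of mTORC1 and of ERK signalling. Phosphorylation rises in neurons that have recently fired, and an antibody to pS6 therefore pulls down ribosomes, with the mRNA they are translating, in proportion to how strongly S6 is phosphorylated in each cell. A gene that stands higher in the IP than in the input is one whose RNA has a larger share of the captured RNA than of the tissue RNA. That alone does not place the RNA on those ribosomes. The LS is a mainly GABAergic relay between hippocampus and hypothalamus. Its neurons express peptides such as neurotensin and somatostatin, and the study found Sst in part of the LS Nts neurons. In tissue pools, fewer cells of a type and less RNA per cell cannot be told apart, and neither can be told from less pS6 per ribosome.

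The promoters of 3 genes that stood higher in the RS IP are shown here. They are Fos and Fosb, immediate early genes of the AP-1 family, and Nts, the neurotensin precursor. The part of these promoters in the IP values was not tested. Each line holds the 250 bases before and the 50 bases after the annotated start, 5′ to 3′, from RefSeq on GRCm38.p6. Capitals mark TGANTCA, the AP-1 site, and TGACG or its reverse complement CGTCA, the core of the cyclic AMP response element (CRE).
Fos, chr12:85473640-85473939, plus strand: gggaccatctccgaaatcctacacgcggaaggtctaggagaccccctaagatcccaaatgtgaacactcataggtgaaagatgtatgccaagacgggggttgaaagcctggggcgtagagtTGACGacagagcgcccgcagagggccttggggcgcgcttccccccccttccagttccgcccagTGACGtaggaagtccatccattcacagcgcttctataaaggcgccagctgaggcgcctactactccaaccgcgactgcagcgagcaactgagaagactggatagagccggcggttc
Fosb, chr7:19309996-19310295, minus strand: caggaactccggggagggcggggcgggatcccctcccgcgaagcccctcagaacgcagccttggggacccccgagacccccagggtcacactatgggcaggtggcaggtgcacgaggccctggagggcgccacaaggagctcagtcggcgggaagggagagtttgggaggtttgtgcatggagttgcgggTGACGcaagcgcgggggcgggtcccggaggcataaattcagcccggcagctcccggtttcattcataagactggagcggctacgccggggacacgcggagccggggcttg
Nts, chr10:102490369-102490668, minus strand: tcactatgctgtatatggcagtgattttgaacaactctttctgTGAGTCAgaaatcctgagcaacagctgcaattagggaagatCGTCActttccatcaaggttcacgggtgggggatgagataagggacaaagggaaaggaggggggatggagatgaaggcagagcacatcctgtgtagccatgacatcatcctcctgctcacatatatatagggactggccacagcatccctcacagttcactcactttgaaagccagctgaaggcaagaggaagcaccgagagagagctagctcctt
The Fos window held TGACG with its first base at -129 and at -66 from the start, the Fosb window held it at -60, and the Nts window held TGAGTCA at -207 and CGTCA at -166. Searched on both strands, the CRE core occurred in 13 of the 18 early transcription factor genes with a window (72.2%), in 15 of 33 neuropeptide genes (45.5%), in 34.3% of the 11208 tested genes with a window and in 34.9% of those called higher. The AP-1 letters occurred in 1 of 18 early factor genes (5.56%), 6 of 33 neuropeptide genes (18.2%) and 6.28% of tested genes. Among genes called higher their share was 6%. The full CRE occurred in 1 of these 18 (5.56%), 2 of these 33 (6.06%), 3.48% of tested genes and 3.85% of those called higher. These are letter matches, not measured sites, and the core was chosen after these promoters had been read.

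Values are TPM as deposited, and differences are limma contrasts of log2(TPM + 1) with a standard error and a p-value adjusted over the 14365 genes, called under 0.05. On the first principal component of all libraries the RS IPs scored 44.3 and 43.8 and the RS inputs -61.0 and -53.9, a wider gap between the inputs than between the IPs. Of all tested genes, 17.8% were called higher in the RS IP and 54.9% lower, and 5.3% and 19.3% were called with a difference of at least 2-fold. Both IP values lay above both inputs in 23.2% of genes and below both in 62.5%. The median difference over all genes was -0.42. In TPM every library sums to the same total, so a rise of abundant genes lowers the values of the rest. With median-of-ratios scaling, which sets the typical gene to no change, the median was 0.01 and the calls were 33.4% higher and 31.2% lower. The medians thus differed by 0.43, and because of the pseudocount single genes moved by more or less than that. For the lists below, counts on the TPM scale come with the counts under median-of-ratios scaling. Every gene called higher on the TPM scale was also called higher under the second scaling (2563 of 2563), while of the 7891 called lower 4477 were called lower there too and 364 were called higher. Naive and RS libraries shared no sample, and an IP to input difference was said to differ between RS and naive mice only where the interaction contrast was called.

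Immediate early transcription factors were more often higher than lower in the RS IP. Of the 25 tested, 13 rose and 8 fell, with a median of 0.35 against -0.42 for all genes; under median-of-ratios scaling 17 rose and 3 fell. Fos, which with Jun proteins forms AP-1, stood at 86.1 and 83.3 TPM in the RS inputs and at 120.0 and 117 TPM in the RS IPs. The IP values lay above the input values with no overlap, a log2 difference of 0.48 ± 0.09 (adjusted p = 0.0011). Fosb was low in the inputs at 3.85 and 3.78 TPM and reached 13.7 and 13.9 TPM in the IPs, a difference of 1.62 ± 0.18 (adjusted p = 8.0e-05). Junb, another AP-1 partner, rose from 61.7 and 56.5 to 97.6 and 107 TPM (0.78 ± 0.07, adjusted p = 3.2e-05). Not every early gene behaved in this way, and 5 in place of 8 fell without RS input replicate 1 or without RS IP replicate 1. Nr4a1, an orphan nuclear receptor, read 111 and 103 TPM in the inputs and 107 and 120.4 TPM in the IPs, and the groups overlapped (adjusted p = 0.31), although it was called higher under median-of-ratios scaling (0.60) and length-corrected (0.50). Egr1, a zinc-finger factor, was at 276 and 243 TPM in the inputs and 178 and 184 TPM in the IPs, a fall of the size of the table's median (-0.51 ± 0.07, adjusted p = 2.4e-04) that was 0.00 under median-of-ratios scaling. Klf6 fell on both scales, from 9.21 and 8.45 to 3.47 and 3.45 TPM (-1.14 ± 0.10 on TPM and -0.71 under the second scaling).

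Among 34 tested early effector genes, 14 rose and 12 fell, with a median of 0.20, and under median-of-ratios scaling 25 rose and 4 fell. Gadd45b, a stress and DNA demethylation factor, climbed from 21.95 and 24.2 TPM to 88.6 and 101 TPM (1.99 ± 0.09, adjusted p = 1.5e-06). Dusp14, a MAP kinase phosphatase, went from 314 and 308 to 608 and 598 TPM (0.95 ± 0.06). The list was split in direction. Rgs4, which shortens G protein signalling, read 394 and 353 TPM in the inputs and 196 and 183 TPM in the IPs (-0.97 ± 0.06, adjusted p = 5.1e-06), and Plk2, a kinase that scales synapses down, fell by a like amount (-0.94 ± 0.06). Both falls were called under the second scaling too.

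**Figure D1:**
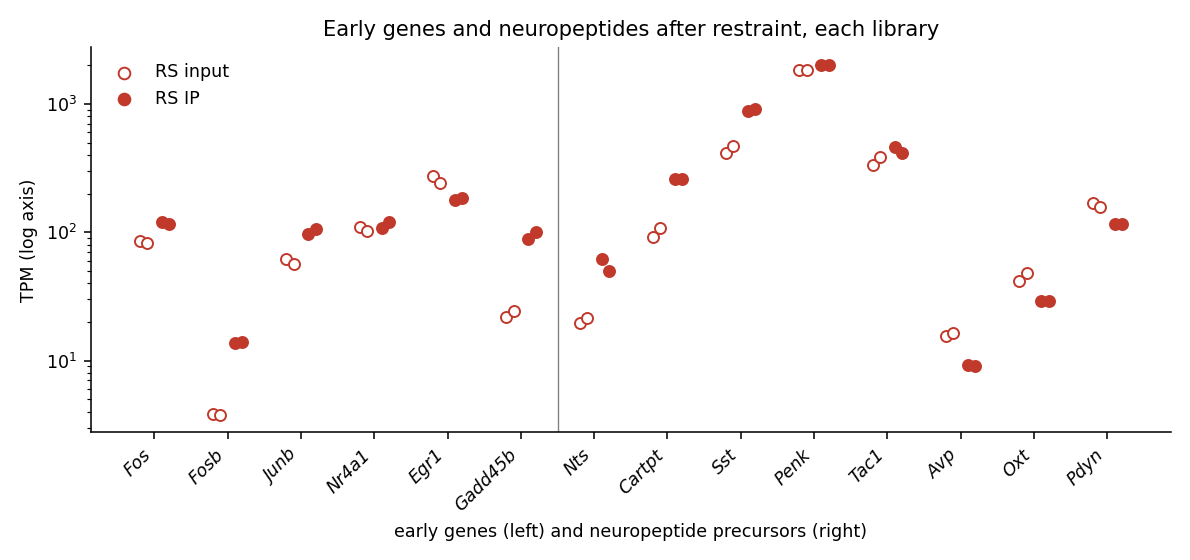
TPM on a log axis of 6 early genes and 8 neuropeptide precursors in each RS input library (open circles) and each RS IP library (filled circles). Fosb, Gadd45b, Nts, Cartpt and Sst show the 2 IP points well above the 2 input points, while Egr1, Avp, Oxt and Pdyn lie below.

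Neuropeptide precursors mostly stood higher in the RS IP, the septal peptides Nts, Cartpt and Sst among them. Of 40 tested members 24 rose and 3 fell, with a median of 0.45, and under median-of-ratios scaling 30 rose and none of the 40 fell. Nts read 19.8 and 21.6 TPM in the inputs and 61.8 and 49.7 TPM in the IPs (1.38 ± 0.11, adjusted p = 1.2e-05). Cartpt, the CART precursor, read 91.1 and 108 TPM against 262 and 258 TPM in the IPs (1.38 ± 0.08). Sst, the precursor of the inhibitory peptide somatostatin, was far more abundant, at 416 and 469 TPM in the inputs and 888 and 913 TPM in the IPs (1.03 ± 0.06, adjusted p = 2.9e-06). For these 3 peptides the IP libraries lay clear of the inputs. The most abundant precursor, Penk (enkephalin), changed little, from 1837 and 1841 to 2012 and 2017 TPM (0.13 ± 0.03, adjusted p = 0.0057), and Tac1 (substance P) rose by 0.29 ± 0.08, a call lost without RS input replicate 1 (adjusted p = 0.07) or RS IP replicate 1 (adjusted p = 0.085). The 3 that fell were the hypothalamic nonapeptides Avp and Oxt and the dynorphin precursor Pdyn. Avp went from 15.6 and 16.5 to 9.17 and 9.01 TPM (-0.76 ± 0.15), Oxt from 41.4 and 47.8 to 29.2 and 29.1 TPM (-0.59 ± 0.10), and Pdyn from 169.7 and 158 to 115 and 115 TPM (-0.50 ± 0.06). Their differences under median-of-ratios scaling were -0.28, -0.10 and 0.00, none of them called. Precursor mRNAs are short, with a median annotated length of 846 bases, and after a correction for transcript length (described further on) the list gave 13 rises and 9 falls. Nts (1.18), Cartpt (0.77) and Sst (0.29) remained called higher, and Tac1 (0.07) did not.

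Genes that process and package peptides were called at about the shares of the whole table. Of 23 members 4 rose (17.4%, against 17.8% of all genes) and 11 fell (47.8%, against 54.9%) (13 and 6 under median-of-ratios scaling). Resp18, an endocrine granule protein, rose from 486 and 546 to 820.5 and 815 TPM (0.67 ± 0.06, adjusted p = 1.7e-05), although its length-corrected difference was -0.04 and not called. Cpe, the carboxypeptidase that trims peptides, stood at 685 and 632 TPM in the inputs and 644 and 648 TPM in the IPs (adjusted p = 0.63) and was called higher under median-of-ratios scaling (0.48). The granins Scg2 (-0.79 ± 0.06) and Chgb (-0.73 ± 0.05) fell on both scales. Of 38 receptors for feeding and stress peptides, 8 rose (21.1%) and 12 fell (31.6%), with 19 and 6 under the second scaling. Ntsr2, the low-affinity neurotensin receptor found on astrocytes as well as neurons, rose from 74.9 and 78.4 to 142 and 150.2 TPM (0.92 ± 0.06, adjusted p = 5.0e-06). Ramp1, the accessory subunit of the CGRP receptor, rose from 40.8 and 39.8 to 80.2 and 86.7 TPM (1.03 ± 0.06), and the somatostatin receptor Sstr2 from 67.9 and 65.4 to 108 and 112 TPM (0.71 ± 0.13). Mc3r, a melanocortin receptor, was rarer, at 4.28 and 4.74 TPM in the inputs and 6.85 and 7.39 TPM in the IPs (0.56 ± 0.19, adjusted p = 0.024), and leaving out any one of the RS libraries raised its adjusted p to between 0.051 and 0.1. Glp1r read 16.3 and 13.3 TPM against 9.15 and 11.99 TPM in the IPs, a fall of -0.45 ± 0.17 (adjusted p = 0.039) that was 0.02 under median-of-ratios scaling and lost its call with a replicate block (adjusted p = 0.067), without RS input replicate 1 (adjusted p = 0.21) or without RS IP replicate 1 (adjusted p = 0.23). Sort1, a sorting receptor that also binds neurotensin, fell from 22.9 and 19.96 to 8.57 and 9.7 TPM (-1.15 ± 0.11). Corrected for length, Sort1 stood at -0.26 and was not called (adjusted p = 0.063).

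Genes that define the neurons had list medians on either side of the table's -0.42 on the TPM scale. The medians were -0.60 for the GABA list, -0.50 for 24 pan-neuronal genes and -0.25 for septal and forebrain transcription factors. Septal and GABAergic genes were present in every library. The vesicular GABA transporter Slc32a1 read 4.99 and 6.07 TPM in the inputs and 5.83 and 6.26 TPM in the IPs with no call (adjusted p = 0.42). Its difference under median-of-ratios scaling was 0.55, which was called (adjusted p = 0.0055). Of 25 genes of the GABA list 5 rose and 18 fell (8 and 9 under median-of-ratios scaling, and 10 and 8 after the length correction). The risers included small autophagy adaptors, which were not among the markers taken to define GABAergic neurons. Gabarapl2 went from 815 and 861 to 1378 and 1312 TPM (0.68 ± 0.06) and Gabarap from 428 and 503 to 786 and 779 TPM (0.75 ± 0.07). The receptor subunit Gabrb1 fell from 80.1 and 77.6 to 27.1 and 27.96 TPM (-1.48 ± 0.09), as did the GABA-degrading transaminase Abat (-1.24 ± 0.07). Among 38 septal and forebrain transcription factors 6 rose and 17 fell (18 and 9 under the second scaling, and 20 and 7 after the length correction). Bcl11a rose from 74.4 and 69.3 to 90.9 and 88.3 TPM (0.32 ± 0.08), whereas Meis2 fell from 91.1 and 87.3 to 36.9 and 35.6 TPM (-1.28 ± 0.06) and Foxp1 from 37.3 and 33.7 to 14.5 and 13.7 TPM (-1.27 ± 0.08).

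Markers of neighbouring neurons were present in the dissected tissue. The striatal list summed to 5388 and 5036 TPM in the RS inputs and 4316 and 4598 TPM in the RS IPs, and 1 of its 14 members rose while 9 fell (5 and 6 under median-of-ratios scaling). The riser was Rasd2, a striatal small GTPase, at 817 and 700.0 TPM in the inputs and 953 and 1044 TPM in the IPs (0.40 ± 0.07). Ppp1r1b (DARPP-32), the dopamine signalling integrator, read 2375 and 2272 TPM and 2099.8 and 2222 TPM in the IPs (adjusted p = 0.053; called higher under median-of-ratios scaling, 0.41), and the GTPase activator Rgs9 fell from 116 and 107 to 45.01 and 47.5 TPM (-1.25 ± 0.07). Of 13 glutamatergic genes 3 rose and 8 fell (5 and 3 under the second scaling, and 5 falls without RS input replicate 1), and the vesicular transporter Slc17a7 fell from 171 and 165 to 84.03 and 92.6 TPM (-0.92 ± 0.06). The cholinergic list had 6 tested members, 1 higher and 1 lower (4 and 1 under the second scaling), and its synthetic enzyme Chat read 15.7 and 13.8 TPM in the inputs and 15.2 and 14.9 TPM in the IPs, which was called higher under median-of-ratios scaling (0.51) and after the length correction (0.51). The part of dissection in these values was not tested.

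Synaptic scaffold genes mostly fell in the RS IP on the TPM scale and under median-of-ratios scaling. Channels and glutamate receptors gave more falls than rises on the TPM scale, as did all tested genes (54.9% lower and 17.8% higher). After the length correction both gave more rises than falls. Of 38 synaptic scaffold genes none rose and 29 fell on the TPM scale, with a median of -0.95, and 5 rose and 24 fell under median-of-ratios scaling. Their transcripts are long, with a list median of 7494 bases. After the length correction 8 rose and 14 fell, with a median of -0.05. Map1b, a microtubule-binding protein of axons, dropped from 119 and 104 to 31.8 and 30.3 TPM (-1.81 ± 0.08, adjusted p = 1.3e-06), and Dlgap1, a postsynaptic density protein, from 129 and 114 to 41.1 and 44.4 TPM (-1.49 ± 0.08). The exceptions under median-of-ratios scaling included Dlgap4, at 73.5 and 81.6 TPM in the inputs and 74.3 and 75.5 TPM in the IPs (0.46 on that scale). Among 49 voltage-gated and leak channels 5 rose (10.2%) and 32 fell (65.3%), with 11 and 15 under the second scaling. The sodium channel Scn8a fell from 15.9 and 17.8 to 5.45 and 5.58 TPM (-1.45 ± 0.10). Of 22 glutamate receptor genes 1 rose (4.55%) and 15 fell (68.2%), with 9 and 7 under the second scaling. The riser was Grik5, a kainate receptor subunit, from 7.75 and 8.55 to 12.6 and 13.2 TPM (0.60 ± 0.09), and the AMPA receptor subunit Gria2 fell from 199 and 188 to 100.4 and 102 TPM (-0.93 ± 0.06). Corrected for length, Gria2 stood at -0.02 and was not called, the channel list gave 21 rises and 6 falls and the glutamate receptors 11 and 2. Vesicle fusion genes gave 5 rises and 21 falls of 29 (12 and 8 under the second scaling, and 2 rises without RS IP replicate 1). Napb, a fusion adaptor, fell from 622 and 591 to 195 and 187 TPM (-1.66 ± 0.05), and Snap25, the SNARE of the plasma membrane, fell on the TPM scale (-0.37 ± 0.05) but rose under median-of-ratios scaling (0.15, adjusted p = 0.038).

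The translation machinery split by the kind of protein. Of the 49 large-subunit ribosomal proteins 44 rose and 1 fell, with a median of 1.04, and of the 34 of the small subunit 31 rose and none fell, with a median of 1.14. Under median-of-ratios scaling all 83 rose. Summed over the large subunit, the inputs held 11349 and 13965 TPM and the IPs 25108 and 25228 TPM. Rpl22l1, a paralog of Rpl22, rose from 86.1 and 108 to 510.2 and 438 TPM (2.28 ± 0.11, adjusted p = 1.9e-06). Rps27l went from 32.1 and 34.4 to 129 and 122 TPM (1.89 ± 0.07), Rpl23 from 285 and 317 to 707 and 645 TPM (1.16 ± 0.06), and Rps16 from 135 and 149.9 to 318 and 331 TPM (1.18 ± 0.06). Rpl3 and Rpl4, with annotated transcripts of 1351 and 1538 bases against a list median of 886, were not called higher on the TPM scale. Rpl3 read 948 and 1123 TPM in the inputs and 1152 and 1131 TPM in the IPs (adjusted p = 0.099), with a called rise under median-of-ratios scaling (0.66) and without RS input replicate 2 (0.27), and Rpl4 fell slightly, from 735 and 789.5 to 663 and 706 TPM (-0.15 ± 0.05, adjusted p = 0.02), a change that lost its call without RS input replicate 2 (adjusted p = 0.07) or RS IP replicate 1 (adjusted p = 0.12) and was 0.36 and called higher under median-of-ratios scaling. Ribosomal protein genes have many processed pseudogene copies, so reads can be shared between near-identical sequences. Rps6 itself, the antibody's target protein, rose from 291 and 312 to 413 and 387 TPM (0.41 ± 0.06), and its length-corrected difference was -0.15. With the length correction 38 large and 23 small subunit genes were called higher and 1 lower, and 36 and 22 were called higher on the TPM scale, under median-of-ratios scaling and length-corrected alike.

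Ribosomal protein mRNAs classically begin with a run of pyrimidines, the 5′ terminal oligopyrimidine tract read by mTORC1 signalling, and the start of several is shown for that reason. Each line gives the 10 bases before and the 20 after the annotated RefSeq start on GRCm38.p6. Capitals mark the longest run of C and T on either side of the start. In Rpl23, Rps16, Rps25 and Rps27l that run lies wholly before the annotated start, outside the annotated mRNA. Ribosomal genes come first, then a pair of cytochrome oxidase genes from the same comparison. Rpl32 and Cox6c were also picked but had no window.
Rpl22l1, chr3:28805498-28805527, plus strand: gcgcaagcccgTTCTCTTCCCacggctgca
Rpl23, chr11:97782420-97782449, minus strand: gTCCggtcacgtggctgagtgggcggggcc
Rps16, chr7:28350679-28350708, plus strand: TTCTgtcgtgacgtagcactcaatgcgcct
Rps25, chr9:44407704-44407733, plus strand: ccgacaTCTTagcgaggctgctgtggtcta
Rps27l, chr9:66946076-66946105, plus strand: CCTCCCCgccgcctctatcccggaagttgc
Cox14, chr15:99725608-99725637, plus strand: cgagaggaaggCTagactgagcgtgcgtaa
Cox7b, chrX:106015690-106015719, plus strand: atctcgcgacatctcaccaaTTCTCatttg
A run of at least 8 pyrimidines lay in this window in 23 of 62 ribosomal protein genes with a window (37.1%), in 11.4% of all tested genes and in 8 of 70 respiratory chain and ATP synthase genes (11.4%). It lay in 12.1% of all genes called higher and 11.2% of those called lower. These shares include runs before the start. Counted only from an annotated first base that is C, a run of at least 5 pyrimidines occurred in 15 of 62 ribosomal protein genes (24.2%). The share was 3.05% for all tested genes, 3.74% for those called higher and 2.72% for those called lower. Annotated starts need not be the used ones to the base, so the run of a single gene is not a measured tract.

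Other parts of the translation apparatus were spread in both directions. Mitochondrial ribosomal proteins rose with the cytosolic ones, 51 of 76 higher and 9 lower (70 and 4 under median-of-ratios scaling), among them Mrpl20, from 121 and 135 to 433 and 427 TPM (1.74 ± 0.06, adjusted p = 6.5e-07), and Mrpl53 (1.40 ± 0.05). Of 54 initiation and elongation factors 13 rose (24.1%) and 31 fell (57.4%), against 17.8% and 54.9% of all tested genes. Under the second scaling 28 rose and 8 fell. Eif1, which guards start codon choice, rose from 2613 and 2859 to 5798 and 5479.9 TPM (1.04 ± 0.05) and its paralog Eif1b from 368 and 381 to 917 and 922 TPM (1.29 ± 0.04). Eif3b, a scaffold of the initiation complex, fell from 80.9 and 79.1 to 27.1 and 27.6 TPM (-1.52 ± 0.06, adjusted p = 1.3e-06), and the elongation factor Eef1a1 read 1244 and 1510.2 TPM in the inputs and 1423 and 1373 TPM in the IPs with no call, and was called higher under median-of-ratios scaling (0.54); without RS input replicate 1 it was called lower (-0.11) and without RS input replicate 2 higher (0.17). Aminoacyl-tRNA synthetases, which charge tRNAs, were the only list of the 44 in which every tested member fell. All 20 fell on the TPM scale, with a median of -0.84; none rose and 14 fell under median-of-ratios scaling, and none rose and 15 fell after the length correction. Iars went from 34.8 and 35.2 to 10.2 and 11.7 TPM (-1.59 ± 0.09, adjusted p = 2.6e-06) and Cars from 61.7 and 61.8 to 23.7 and 26.6 TPM (-1.26 ± 0.09). Among 33 genes of the mTOR to S6 kinase pathway 6 rose (18.2%, against 17.8% of all genes) and 22 fell (66.7%, against 54.9%). Under the second scaling 9 rose and 17 fell. The lysosomal scaffold subunit Lamtor5 rose from 228 and 283 to 523 and 526 TPM (1.04 ± 0.09), while Mlst8, a subunit of mTOR complexes, fell from 73.4 and 66.9 to 24.6 and 25.1 TPM (-1.46 ± 0.09) and the activating kinase Pdpk1 from 68.2 and 73.2 to 25.6 and 23.6 TPM (-1.49 ± 0.08).

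**Figure D2:**
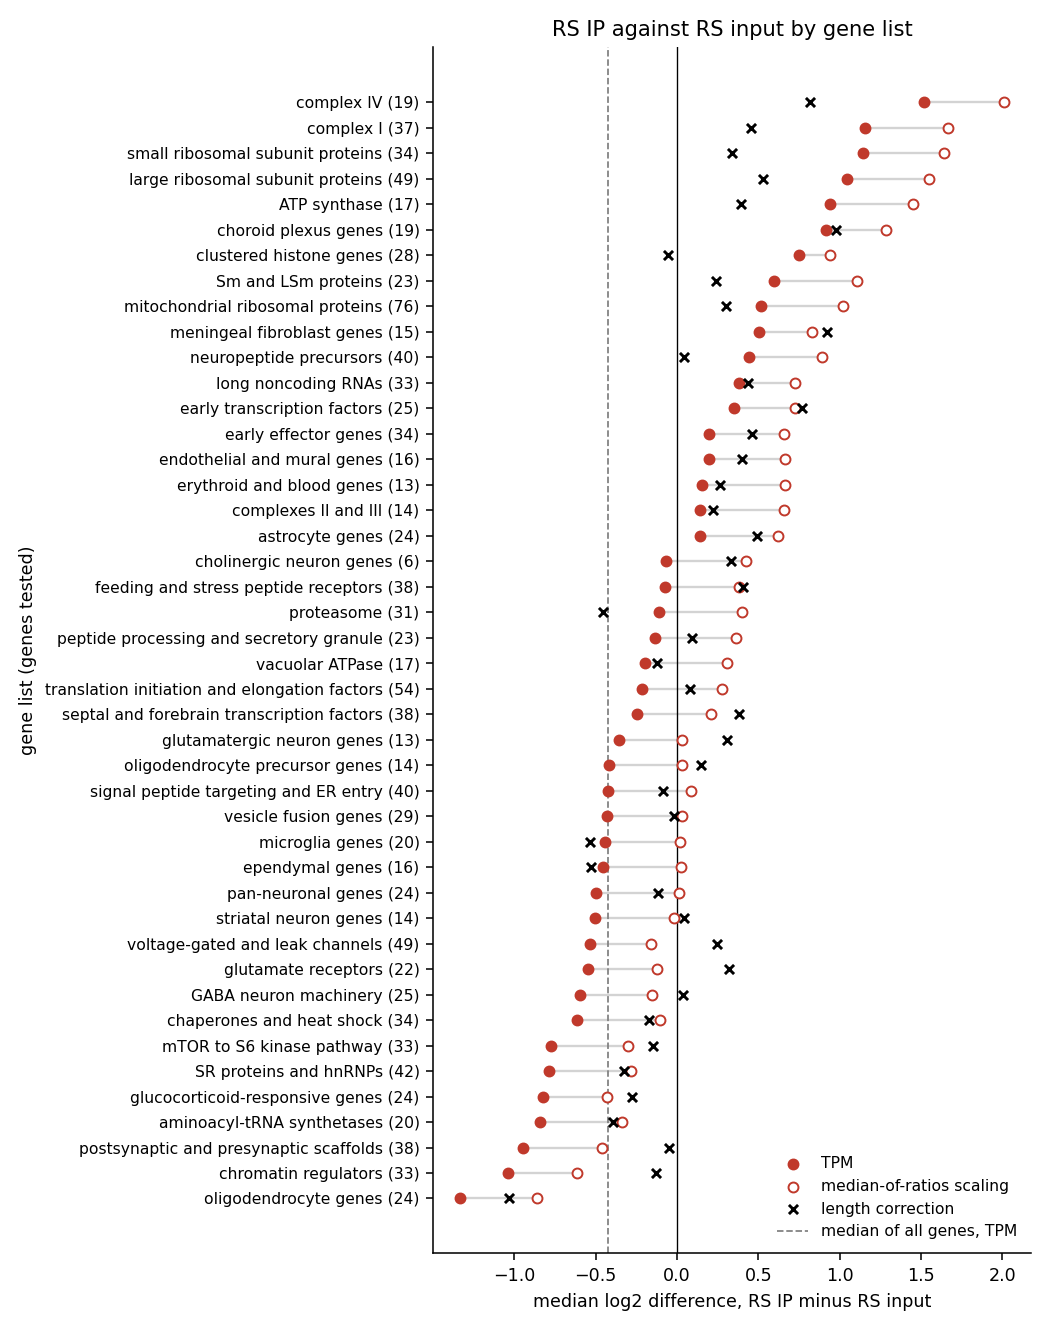
Median log2 difference of RS IP against RS input for each of 44 gene lists on the TPM scale (filled circles), under median-of-ratios scaling (open circles) and after the length correction (crosses), with vertical lines at 0 and at the median of all tested genes on the TPM scale, -0.42. Complex IV lies highest on the TPM scale at 1.52 and the oligodendrocyte list lowest at -1.33.

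Nuclear genes of oxidative phosphorylation rose widely, and complex IV had the highest median of the 44 lists on the TPM scale. Complex IV (cytochrome oxidase) rose in 18 of 19 members and fell in none, with a median of 1.52, and in 19 of 19 under median-of-ratios scaling. The inputs summed to 9012 and 10658 TPM over the list and the IPs to 25500.0 and 25211 TPM. Cox6c read 552 and 658 TPM in the inputs and 2327 and 2265 TPM in the IPs (1.93 ± 0.07, adjusted p = 9.4e-07), and Cox14, an assembly factor, read 303 and 279 and 960.3 and 947 TPM (1.71 ± 0.05). Isoforms best known from muscle or testis were also captured. Cox7a1, the heart and muscle form, rose from 5.04 and 4.5 to 38.9 and 42.03 TPM (2.85 ± 0.29, adjusted p = 4.5e-05). Cox8b, another muscle form, rose from 7.76 and 4.1 to 85.3 and 87.1 TPM (3.70 ± 0.58, adjusted p = 5.4e-04), and the testis form Cox6b2 from 4.72 and 4.68 to 28.4 and 31.7 TPM (2.44 ± 0.13). In naive mice Cox8b was listed at 0 and 2.81 TPM in the inputs and 2.08 and 4.79 TPM in the IPs. Its high reading was thus in the RS IPs alone among the 8 libraries, but its interaction was not called. The length correction left 15 complex IV genes called higher and none lower.

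The other complexes were also mostly higher, with catalytic and core subunits among the members that fell on the TPM scale. Complex I gave 32 rises and 5 falls of 37 (33 and 0 under median-of-ratios scaling), complexes II and III 8 and 3 of 14 (11 and 3), and ATP synthase 15 and 2 of 17 (15 and 0). Ndufa4 went from 676 and 845 to 3035 and 2892 TPM (1.97 ± 0.09) and Uqcr10 from 469 and 617 to 1866 and 1934 TPM (1.82 ± 0.11). Ndufa4 was counted here in the complex I list, and its place in that complex was not examined. Among ATP synthase members Usmg5, a small membrane subunit, reached 6391 and 6221 TPM from 997 and 1291 TPM (2.47 ± 0.10, adjusted p = 1.1e-06), and the epsilon subunit Atp5e reached 1269 and 1267 from 204 and 271 TPM (2.43 ± 0.11). These IP values lay several-fold above every input value. The catalytic subunits fell: Atp5b, the beta subunit, from 2759 and 2801 to 1939 and 1922 TPM (-0.53 ± 0.03) and Atp5a1, the alpha subunit, from 1136 and 1082 to 755 and 753 TPM (-0.56 ± 0.04). Under median-of-ratios scaling these 2 were at -0.01 and -0.04 with no call. The flavoprotein Sdha of complex II fell on both scales, from 873 and 808 to 454 and 449.9 TPM (-0.89 ± 0.05 and -0.38), as did the core proteins Uqcrc1 (-0.66 ± 0.04 and -0.15) and Uqcrc2 (-0.69 ± 0.06 and -0.19) of complex III.

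**Figure D3:**
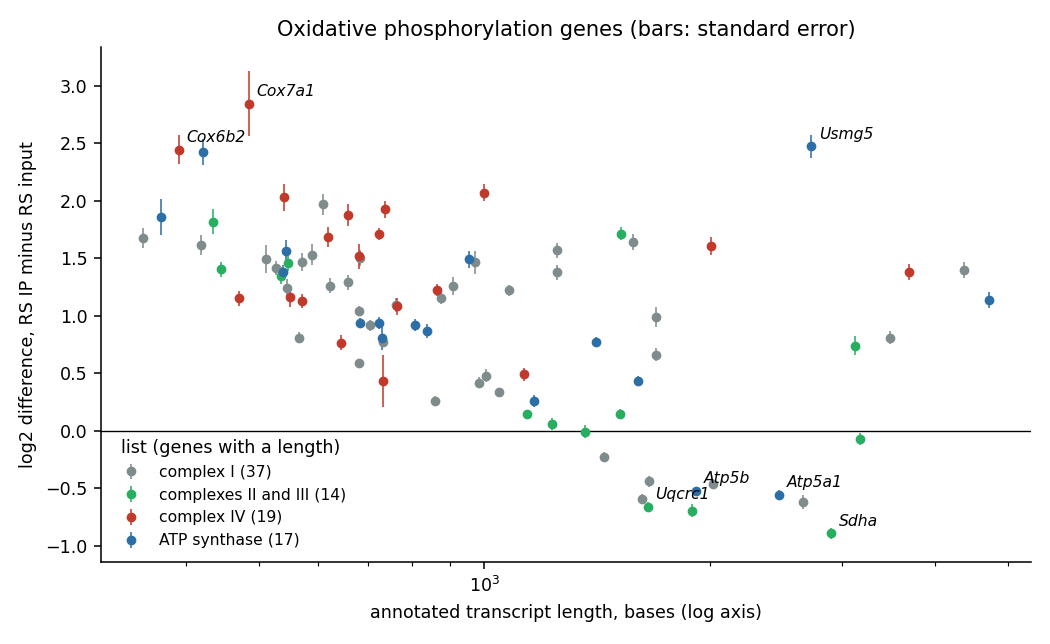
Log2 difference of RS IP against RS input with its standard error (vertical axis) against the annotated transcript length in bases on a log axis for every tested member of complexes I to IV and ATP synthase. Complex IV members lie above 0, and the few members below 0 are longer transcripts such as Sdha, Uqcrc1, Atp5a1 and Atp5b.

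Genes of protein quality control moved in both directions. The proteasome gave 10 rises (32.3%, against 17.8% of all genes) and 15 falls (48.4%, against 54.9%) of 31. It gave 18 and 11 under median-of-ratios scaling, and 5 and 20 after the length correction. Psmd11, a regulatory lid subunit, fell from 415 and 381 to 120.2 and 126 TPM (-1.68 ± 0.06, adjusted p = 8.0e-07), the base ATPase Psmc5 from 1520.2 and 1511 to 628 and 605 TPM (-1.30 ± 0.04), and the core subunit Psma7 rose from 537 and 592 to 881 and 873 TPM (0.64 ± 0.05). Corrected for length, Psma7 stood at 0.12 and was not called (adjusted p = 0.066). Chaperones gave 5 rises (14.7%) and 26 falls (76.5%) of 34 (8 and 13 under the second scaling). The co-chaperone Stip1 fell from 612 and 576 to 254 and 252 TPM (-1.23 ± 0.05), the abundant Hspa8 fell on the TPM scale (-0.52 ± 0.04) with -0.01 under the second, and the small mitochondrial Hspe1 rose from 97.4 and 103 to 306 and 293 TPM (1.57 ± 0.05). Genes of entry into the endoplasmic reticulum gave 11 rises (27.5%) and 27 falls (67.5%) of 40 (17 and 12 under the second scaling). Sec61g, the smallest subunit of the translocon, rose from 104 and 120.4 to 509 and 507 TPM (2.17 ± 0.07, adjusted p = 5.2e-07), while Srp68 of the signal recognition particle fell from 173 and 166 to 63.9 and 66.9 TPM (-1.36 ± 0.06). The vacuolar ATPase gave 5 rises (29.4%) and 11 falls (64.7%) of 17 (9 and 4 under the second scaling).

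Nuclear RNA processing genes were divided, and chromatin regulators mostly fell. Sm and LSm proteins, the ring subunits of spliceosomal particles, rose in 17 of 23 and fell in 4 (20 and 2 under median-of-ratios scaling), with Snrpg going from 81.1 and 113 to 365 and 385 TPM (1.96 ± 0.13). SR proteins and hnRNPs rose in 3 of 42 and fell in 32 (8 and 21 under the second scaling), with Tra2b going from 51.4 and 49.1 to 22.9 and 21.3 TPM (-1.15 ± 0.08). The SR and hnRNP genes called higher were Hnrnpab (0.35 ± 0.06), Srsf5 (0.31 ± 0.05) and Rbm39 (0.21 ± 0.08), whose call was lost without RS input replicate 2 (adjusted p = 0.19) or RS IP replicate 1 (adjusted p = 0.18). Chromatin regulators fell in 30 of 33 and rose in 1, with a median of -1.04 (27 and 2 under median-of-ratios scaling). Dnmt3a, a DNA methyltransferase, dropped from 19.4 and 17.3 to 2.94 and 3.14 TPM (-2.26 ± 0.11, adjusted p = 1.8e-06), and the histone deacetylase Hdac5 from 89.3 and 83.6 to 26.7 and 31.4 TPM (-1.55 ± 0.09). The riser was Smarca2, a remodelling ATPase, from 88.6 and 83.1 to 144 and 129 TPM (0.66 ± 0.07). These transcripts are long, with a list median of 8714 bases, and after the length correction 4 rose and 11 fell. Clustered histone genes, whose mRNAs mostly lack a poly(A) tail and are near-identical copies of one another, rose in 16 of the 28 tested and fell in 1 (18 and 0 under median-of-ratios scaling, and 7 and 3 after the length correction). Hist1h4d went from 51.2 and 58.9 to 146 and 162 TPM (1.47 ± 0.08).

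Malat1 and Meg3, long noncoding RNAs, had the most negative log2 differences of the 14365 genes. Malat1, retained in nuclear speckles, fell from 781 and 703 to 11.2 and 9.94 TPM (-6.01 ± 0.08, adjusted p = 1.8e-08) and the imprinted Meg3 from 208 and 189 to 4.38 and 4.74 TPM (-5.16 ± 0.08). Rian, of the same imprinted cluster as Meg3, went from 26.3 and 11.9 to 1.02 and 0.82 TPM (-3.29 ± 0.30) and Snhg11 from 77.98 and 73.8 to 7.79 and 8.47 TPM (-3.08 ± 0.07). Not all noncoding genes fell: of 33 on the list 17 rose and 12 fell (19 and 11 under median-of-ratios scaling). Peg13, an imprinted transcript, stood at 256 and 258 TPM in the inputs and 562 and 575 TPM in the IPs (1.14 ± 0.04, adjusted p = 7.9e-07). The small nucleolar RNA hosts Snhg9, from 14.8 and 7.31 to 89.8 and 81.5 TPM (2.92 ± 0.35), and Gas5, from 139 and 176 to 269 and 275 TPM (0.79 ± 0.10) also rose. Over all annotated lincRNA genes tested, 110 of 254 passed as higher and 35 as lower (median 0.43), against 2188 and 7718 of 13342 protein-coding genes (median -0.46). Under median-of-ratios scaling 153 of the lincRNA genes were higher and 21 lower.

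Several coding genes also fell steeply, though less than Malat1 and Meg3. Nrsn1, a neuronal membrane protein, went from 1381 and 1328 to 133 and 123 TPM (-3.39 ± 0.05, adjusted p = 1.8e-08). Spop, a ubiquitin ligase adaptor, went from 461 and 426 to 43.7 and 46.9 TPM (-3.26 ± 0.06), Rapgef4, a cyclic AMP sensor, from 157 and 149.9 to 15.1 and 16.05 TPM (-3.22 ± 0.07), and Zfp106 from 78.8 and 70.5 to 8.79 and 6.99 TPM (-3.09 ± 0.16). In each of them both IP values lay far below both inputs. The X-linked Cdr1 gene fell from 55.3 and 76.2 to 2.22 and 2.26 TPM (-4.35 ± 0.19). The sources do not say that strand was used in counting, so reads of Cdr1 and of its antisense RNA cannot be told apart. H2-T9, Eif3j2 and Gdf1 were listed at 0 in both RS IPs, while the inputs read 16.8 and 24.4 TPM for H2-T9, 12.7 and 12.8 TPM for Eif3j2 and 31.5 and 2.8 TPM for Gdf1. Defb11, a defensin gene that the rule places among the largest rises, read 18.6 and 18.4 TPM in the IPs and was listed at 0 and 0.65 TPM in the inputs. H2-T9 and Eif3j2 belong to families of near-identical genes, and Gdf1 shares a transcript with Cers1, so these values are uncertain.

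Transcript length ran through these results. In 14239 tested genes with an annotated length, the median difference fell from 0.95 for transcripts of up to 500 bases and 0.90 for those of 500 to 750 bases to 0.18 at 1000 to 1500, -0.41 at 2000 to 3000, -0.79 at 4000 to 6000 and -0.90 beyond 8000 bases. Of the transcripts of 500 to 750 bases 68.2% were called higher and 7.14% lower, and of those beyond 8000 bases 2.79% were higher and 89% lower. Under median-of-ratios scaling the medians ran from 1.32 at 500 to 750 bases to -0.53 beyond 8000 bases. On both scales the medians fell in each step from 500 to 750 bases up to 6000 to 8000 bases. Protein-coding genes called higher had a median length of 1383 bases, against 3559 for those called lower and 2892 for all. The coding part (636 against 1683 bases) and the 3′ untranslated part (375 against 1274) both differed, while the 5′ untranslated part did not to the same degree (178 against 166 bases). Across 13348 coding genes Spearman's rho between the difference and length was -0.54, a description over genes that share libraries and are not replicates. After the trend with length was removed, 27.3% of the 14239 genes were called higher and 29.3% lower, and 1963 genes were called higher and 3032 lower in all of TPM, median-of-ratios and length-corrected fits.

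**Figure D4:**
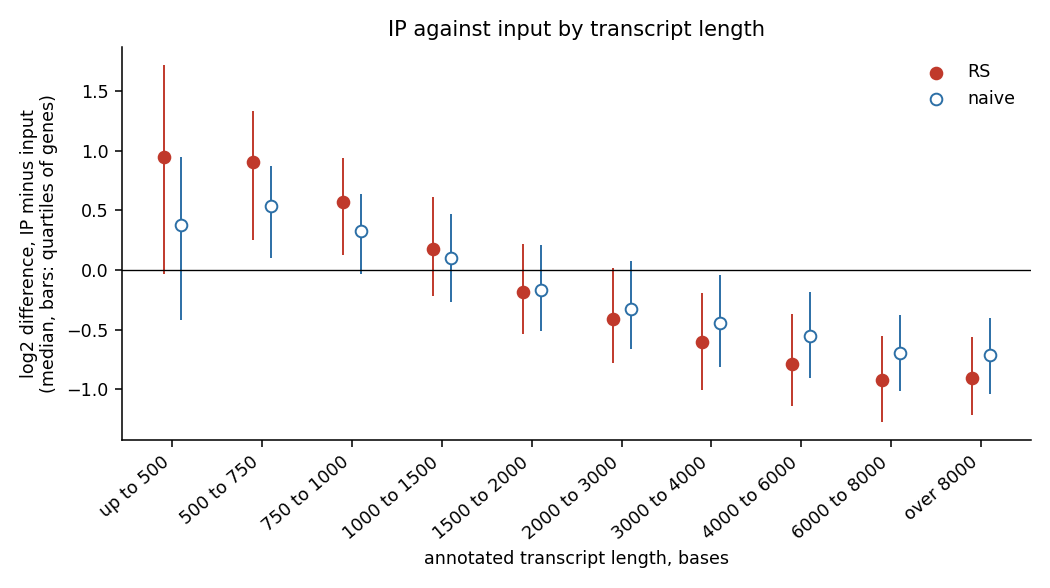
Median log2 difference of IP against input in 10 classes of annotated transcript length for RS (filled circles) and naive libraries (open circles), with bars from the lower to the upper quartile of genes. Both fall with length, and the RS medians start higher for short transcripts (0.95 against 0.37 up to 500 bases) and end lower (-0.90 against -0.71 beyond 8000 bases).

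Glial and other non-neuronal transcripts moved by cell type. Oligodendrocyte genes fell in 22 of 24 and rose in none, with a median of -1.33, the lowest of the 44 lists on the TPM scale (19 fell and 2 rose under median-of-ratios scaling, and 21 fell and 1 rose after the length correction). Their sum went from 12799.7 and 11956 TPM in the inputs to 4521 and 4608 TPM in the IPs. Mbp, the myelin basic protein, fell from 5271 and 4885 to 1271 and 1329.8 TPM (-1.96 ± 0.04), Mal, a myelin proteolipid, from 100.4 and 109.6 to 40.04 and 38.7 TPM (-1.39 ± 0.07), and Cnp, a myelin enzyme, from 1339 and 1214 to 645 and 671 TPM (-0.95 ± 0.05). Astrocyte genes went the other way, with 10 of 24 higher and 4 lower (18 and 2 under the second scaling, 19 and 2 length-corrected). Gjb6, a gap junction protein of astrocytes, rose from 27.1 in both inputs to 75.1 and 69.4 TPM (1.38 ± 0.09, adjusted p = 4.3e-06), the sodium pump subunit Atp1b2 from 137 and 132 to 258 and 269 TPM (0.97 ± 0.05), and Apoe from 935 and 924 to 1282 and 1354 TPM (0.50 ± 0.04). Gfap, the intermediate filament used as the classical marker, was an exception and fell from 144 and 141 to 75.02 and 72.6 TPM (-0.94 ± 0.06 on TPM and -0.43 under the second scaling). Summed, the astrocyte list held 7583 and 7675 TPM in the inputs and 11013 and 11258 TPM in the IPs.

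Microglia genes fell in 13 of 20 and rose in 2 on the TPM scale (5 and 5 under median-of-ratios scaling). After the length correction 14 fell and 1 rose. Cx3cr1, the fractalkine receptor, fell from 23.98 and 19.6 to 4.95 and 4.38 TPM (-2.002 ± 0.13) and Tmem119 from 20.7 and 22.4 to 8.74 and 9.64 TPM (-1.15 ± 0.11), while the lysosomal Cd68 (0.72 ± 0.11) and the adaptor Tyrobp (0.72 ± 0.08) rose. Corrected for length, Tyrobp was called lower (-0.22, adjusted p = 0.037). With the replicate block and the length correction Cd68 stood at 0.31 and was not called (adjusted p = 0.071). Choroid plexus genes rose in 13 of 19 and fell in 1 (16 and 0 under the second scaling and after the length correction), and their sum went from 573 and 631 TPM in the inputs to 2425 and 2441 TPM in the IPs. Ttr, the thyroid hormone carrier that defines the tissue, stood at 259 and 309 TPM in the inputs and 2009 and 2029 TPM in the IPs (2.83 ± 0.10). Kcne2, a potassium channel subunit of choroid epithelium, read 2.73 and 3.15 and 9.72 and 8.86 TPM (1.39 ± 0.18). In naive mice the list summed to 197 and 187 TPM in the inputs and 196 and 190.4 TPM in the IPs, so the RS pools held more of it before any immunoprecipitation. Meningeal fibroblast genes rose in 9 of 15 and fell in none (11 and 0 under the second scaling). Slc13a4, a meningeal sulfate transporter, went from 4.73 and 3.28 to 16.3 and 16.1 TPM (1.80 ± 0.16) and Crabp2, a retinoic acid carrier, from 5.67 and 7.25 to 18.96 and 22.1 TPM (1.53 ± 0.22). Endothelial and mural genes gave 6 rises and 3 falls of 16 (10 and 1), ependymal genes 2 and 9 of 16 (4 and 2, and 5 falls without either RS input or without RS IP replicate 1), oligodendrocyte precursors 1 and 9 of 14 (3 and 3) and erythroid genes 7 and 2 of 13 (10 and 2). The alpha globin Hba-a1 went from 472 and 543 to 2658 and 2663 TPM (2.39 ± 0.07). Hbb-bs, an adult beta globin with the highest log2 difference of all tested genes, was listed at 0 in both RS inputs and read 115 in both IPs, and the near-identical globin copies can exchange reads. The part of these cells in the rise of the lists above was not tested.

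**Figure D5:**
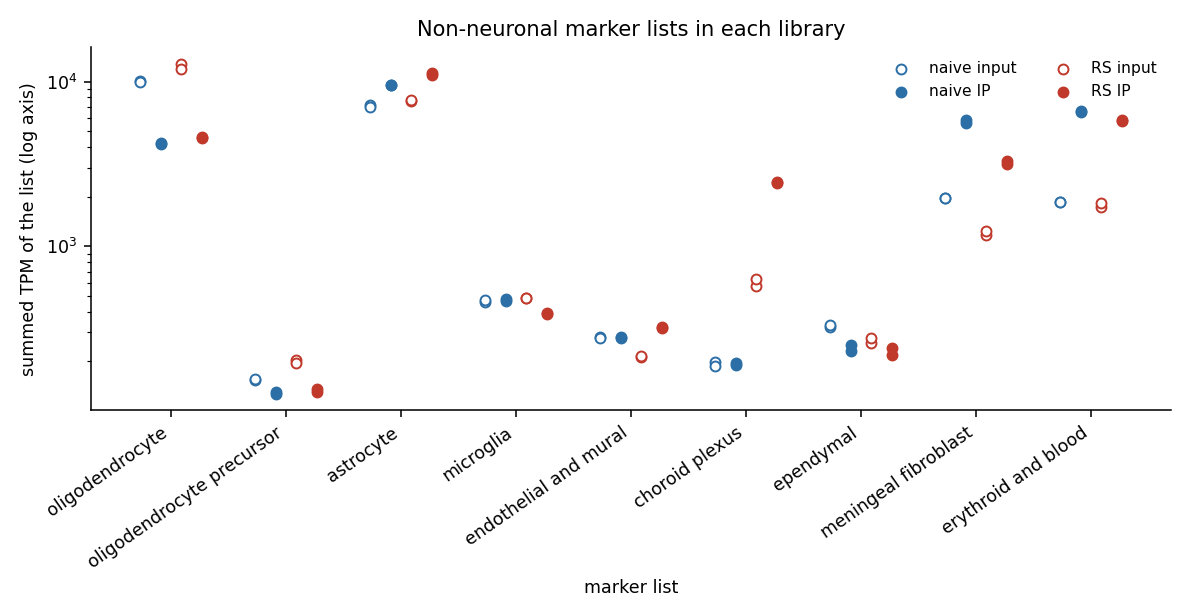
Summed TPM on a log axis of 9 non-neuronal marker lists in each of the 8 libraries, inputs as open and IPs as filled circles, RS in one colour and naive in the other. The oligodendrocyte IP sums lie below the input sums in both conditions, and the choroid plexus sum is high only in RS libraries.

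Genes that respond to glucocorticoids were tested because restraint releases corticosterone. Of 24 members 4 rose and 16 fell in the RS IP (7 and 13 under median-of-ratios scaling). Sgk1, a kinase induced by corticosterone, stood at 397 and 381 TPM in the RS inputs and 88.7 and 92.5 TPM in the RS IPs (-2.09 ± 0.08, adjusted p = 9.1e-07), and in naive mice at 54.2 and 52.1 and 27.9 and 23.9 TPM. The inhibitor of NF-kappaB Nfkbia went from 67.99 and 71.7 TPM to 16.8 in both IPs (-1.99 ± 0.10). Sgk1 and Nfkbia fell on both scales. The metallothionein Mt1 rose from 829.7 and 1076 to 2558 and 2592 TPM (1.45 ± 0.10) and Tsc22d3, known as GILZ, from 416 and 368 to 494 and 459 TPM (0.28 ± 0.07). Tsc22d1 fell from 1484 and 1299 to 688 and 699.9 TPM (-0.999 ± 0.10), while in naive mice it read 669 and 678 TPM in the inputs and 1178 and 947 TPM in the IPs. Its length-corrected RS difference was -0.23 and not called (adjusted p = 0.078).

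Whether a capture was particular to restraint was asked with the interaction, the RS difference less the naive difference. It was called positive for 473 genes (3.29%) and negative for 497 (3.46%), and under median-of-ratios scaling for 657 (4.57%) and 187 (1.3%). Since input and IP with the same number came from 1 lysate, the fit with a replicate block was run as well and called 51 and 27. These counts moved with single libraries, in fits where a lone sample is assumed to vary like the other groups. They were 25 and 14 without naive input replicate 1, 16 and 8 without naive input replicate 2, 23 and 14 without naive IP replicate 1, and 39 and 32 without naive IP replicate 2. Without RS IP replicate 1 they were 18 and 16, without RS IP replicate 2 21 and 13, without RS input replicate 1 364 and 140, and without RS input replicate 2 683 and 642. Early transcription factors gave 5 positive and 0 negative interactions of 25, early effectors 9 and 2 of 34, and neuropeptides 9 and 2 of 40, and with the replicate block these were 0 and 0, 3 and 0, and 2 and 0. For Nts the naive libraries read 25.6 and 24.9 TPM in the inputs and 31.4 and 29.8 TPM in the IPs, and the interaction was 1.11 ± 0.15 (adjusted p = 0.017). For Fos they read 35.3 and 33.3 and 24.4 and 28.8 TPM, with an interaction of 0.84 ± 0.12 (adjusted p = 0.018), and for Gadd45b 14.1 and 15.1 TPM and 30.6 in both IPs (0.97 ± 0.13, adjusted p = 0.017). In each of these the RS IPs stood above the naive IPs. With the replicate block the adjusted p was 0.055 for Nts, 0.055 for Fos and 0.04 for Gadd45b. Leaving out single libraries kept the sign of all 3 interactions, and in 5 of the 8 such fits each was not called, with adjusted p up to 0.074 for Nts, 0.082 for Fos and 0.068 for Gadd45b.

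The many interactions of ribosomal and respiratory genes had another make-up. Positive interactions were called for 31 of 49 large and 29 of 34 small ribosomal subunit genes, 18 of 37 in complex I and 16 of 19 in complex IV, and none of these lists had a negative one; with the replicate block the positive counts were 5, 3, 0 and 2. The IP levels were alike in the 2 conditions and the input levels were not. Large-subunit genes summed to 25108 and 25228 TPM in the RS IPs and 26183 and 26200.2 TPM in the naive IPs, but to 11349 and 13965 TPM in the RS inputs and 19713 and 19635 TPM in the naive inputs. Complex IV summed to 25500.0 and 25211 TPM in the RS IPs and 25932 and 25884 TPM in the naive IPs, and to 9012 and 10658 TPM in the RS inputs against 14790.2 and 14793 TPM in the naive inputs. This input difference followed length over the whole table. The median log2 difference of RS input from naive input was -0.39 for transcripts of 500 to 750 bases and 0.30 for those of 6000 to 8000 bases, whereas the median difference of RS IP from naive IP was -0.04 and 0.05 in the same classes. The 2 RS inputs differed along the same axis, with replicate 2 above replicate 1 by a median of 0.15 at 500 to 750 bases and below it by a median difference of -0.07 at 6000 to 8000 bases. Its cause was not tested.

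Single genes with called interactions differed in where the conditions stood apart. Chtf8, a subunit of a DNA clamp loader, read 105 and 90.2 TPM in the RS inputs and 12.4 and 12.5 TPM in the RS IPs, against 18.96 and 19.5 and 14.2 and 13.2 TPM in naive libraries (interaction -2.41 ± 0.13, adjusted p = 2.7e-04). Cant1, a nucleotidase, read 51.9 and 35.9 and 10.4 and 10.9 TPM after RS and 27.5 and 26.5 and 37.3 and 25.03 TPM in naive mice (interaction -2.09 ± 0.29). Amd1, of polyamine synthesis, rose in both conditions (after RS not without RS IP replicate 1, adjusted p = 0.069), but from 5.03 and 4.86 TPM in the naive inputs and 16.4 and 15.98 TPM in the RS inputs (-1.54 ± 0.25). The block raised the adjusted p of Amd1 to 0.052 and that of Dnajb5 to 0.061, and single left-out libraries raised them to at most 0.083 and 0.1, and that of Cant1 to at most 0.074. Among the positive ones, Dnajb5, a chaperone partner, read 48.98 and 27.2 TPM in the RS inputs and 67.6 and 71.3 TPM in the RS IPs, and 66.7 and 73.6 TPM in the naive inputs and 43.6 and 46.7 TPM in the naive IPs, so its IP to input difference had opposite signs in the 2 conditions (1.53 ± 0.31, adjusted p = 0.034).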

How the data were processed

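PhosphoTrap RNA from the lateral septum of naive and RS mice, input and pS6 IP, was analysed in 8 libraries. The deposited values are TPM: every column sums to 1000000, although the file names speak of FPKM, so the depth is unknown and the tests planned for FPKM were run on TPM. The submitters' processing notes name STAR, DESeq2 and mm10, and TopHat and Cufflinks, also with mm10, are given in the study's methods; which of them made the columns is not stated. Symbols turned into dates (26 entries a library) were left out.

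Genes at 1 TPM or more in 2 libraries entered limma 3.58.1 (R 4.3.3) on log2(TPM + 1), with 4 group means, 4 residual degrees of freedom and Benjamini-Hochberg adjustment. A fold change on this scale understates that of low genes. Replicates are separate pools of mice. Input and IP of one number came from 1 lysate, which pairs them; the deviations of the pairs correlated at -0.05 in RS and -0.06 in naive libraries, and a fit with the pool as a block was run. Median-of-ratios factors used 15740 genes. The length correction removed a lowess trend (span 0.3) on transcript length (per gene the GENCODE M21 transcript with the longest coding part). On simulated data for the RS comparison (14365 genes), 100% of changes of 2 log2 units, 96% of 1 and 50% to 56% of 0.5 were recovered, with 11 false calls among 14165 unchanged genes. The simulated noise was independent, 200 genes were changed, and no shift between scales or trend with length was put in. Errors from such a shift or trend were therefore not tested by it.

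The genes named were fixed study markers, the called genes with the largest rises, falls and interactions above 5 TPM that had no clone-type name, and up to 6 of each of 44 lists (strongest statistic and highest level). Some genes that this rule names are not reported here. The members and lists were chosen with earlier results of these data known. Alternatives covered the pseudocount, the filter, scaling, the block, the length correction and each library left out. Promoter and start sequences are from RefSeq.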

Additional observations from a re-analysis of the deposited data

Results flagged for a closer look

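The IP to input difference was greater after RS than in naive mice for 473 genes and smaller for 497 by the limma interaction contrast (adjusted p under 0.05 over 14365 genes, 8 libraries). The values below are that contrast, the RS difference less the naive difference, in log2 units, for the genes named above. They rest on 2 pools a group, the counts fell to at most 39 and 32 when a naive library or an RS IP was left out but were 364 and 140 without RS input replicate 1 and 683 and 642 without RS input replicate 2, and short transcripts stood lower in the RS inputs than in the naive inputs. With the replicate block only 51 positive and 27 negative interactions were called. None was then called among the 25 early transcription factors, which include Fos, Fosb and Junb. Positive calls with the block were 2 of 40 for neuropeptides, 5 of 49 and 3 of 34 for large and small ribosomal subunit genes and 0 of 37 for complex I. These lists had no negative call with the block. The part of the inputs in single values was not tested.

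Among activity-related genes the contrast was positive for Fos (0.84), Fosb (1.11), Junb (0.68), Gadd45b (0.97) and Dusp14 (0.40). Of the peptide genes Nts (1.11), Cartpt (0.88) and Sst (0.39) had positive values, as did Resp18 (0.45) and Ramp1 (0.40), while Pdyn (-0.65) and Penk (-0.30) had negative ones. Glucocorticoid-responsive genes were divided, with Mt1 at 0.71, Sgk1 at -1.08 and Tsc22d1 at -1.65.

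Ribosomal protein genes had positive values in every case named: 0.86 for Rpl22l1, 0.53 for Rpl23, 0.54 for Rpl3, 0.32 for Rpl4, 0.57 for Rps16, 0.87 for Rps27l and 0.34 for Rps6. The mitochondrial Mrpl20 (0.53) and Mrpl53 (0.54), the factors Eef1a1 (0.65) and Eif1b (0.44) and the scaffold subunit Lamtor5 (0.61) were also positive, and Eif3b was negative (-0.52). In the respiratory chain the values were 1.85 for Cox6b2, 1.91 for Cox7a1, 0.78 for Cox6c, 0.47 for Cox14, 0.54 for Ndufa4, 0.81 for Uqcr10, 0.79 for Atp5e and 0.72 for Usmg5. Other short transcripts with positive values were Sec61g (0.59), Hspe1 (0.50), Snrpg (0.89) and Gabarapl2 (0.38), and the chaperone partner Dnajb5 was at 1.53.

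Most neuronal and synaptic list members had no called interaction, and negative values were called for Dlgap1 (-0.71), Gria2 (-0.67), Napb (-0.35), Nrsn1 (-0.44), Rapgef4 (-0.44), Foxp1 (-0.58), Slc17a7 (-0.52), Rasd2 (-0.54) and Ppp1r1b (-0.44). Among nuclear and degradation genes Hdac5 (-0.60), Tra2b (-0.62) and Psmd11 (-0.55) were negative, and Srsf5 was positive (0.41). The noncoding Snhg9 (2.57), Gas5 (1.05) and Snhg11 (0.46) were positive and Peg13 (-0.37) was negative.

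Of genes typical of other cells, Cnp (-0.42), Cx3cr1 (-0.90) and Tmem119 (-0.83) were negative, and the choroid plexus genes Ttr (1.16) and Kcne2 (1.53) were positive. Negative values were also found for Chtf8 (-2.41), Cant1 (-2.09), Amd1 (-1.54) and the uncertain H2-T9 (-4.41), and a positive one for Defb11 (3.62).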

How the results depend on the processing

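With 2 pools a group and no read counts, the depth behind each value is unknown and the precision is that of the spread between pools. The number of genes higher and lower in the RS IP moved with scaling and with the length correction: 4795 and 4477 under median-of-ratios scaling, 3893 and 4167 after the length correction, 4682 and 4281 with the replicate block and median-of-ratios scaling, and 3745 and 3990 with the block and the length correction. The share of calls that were higher went from 24.5% to 51.7% with median-of-ratios scaling. Leaving out single libraries gave 2282 to 2531 higher and 7134 to 7839 lower genes, and the replicate block alone gave 2531 and 7745. Of the genes named, that block took the call in the RS comparison from Glp1r alone. The interaction counts moved to 121 positive and 125 negative with no filter on low values, to 657 and 187 under median-of-ratios scaling, to 51 and 27 with the block, to 66 and 16 with the block and median-of-ratios scaling, and to between 16 and 683 positive and 8 and 642 negative without single libraries. The larger number of genes tested, 19401 against 14365, bears on the first. The causes of the other changes were not tested. Among the genes named, the RS difference changed sign under median-of-ratios scaling, with or without the block, for Cpe (0.48), Dlgap4 (0.46), Glp1r (0.0222), Pdyn (0.0034), Ppp1r1b (0.41), Rpl4 (0.36) and Snap25 (0.15), each of them negative on the TPM scale. After the length correction, with or without the block, it changed sign for Cpe (0.27), Dlgap4 (0.72), Egr1 (0.23), Gas5 (-0.0155), Glp1r (0.39), Ppp1r1b (0.15), Resp18 (-0.0358), Rps6 (-0.15) and Tyrobp (-0.22). Gria2, Pdyn, Psma7, Rpl4, Snap25, Sort1, Tac1 and Tsc22d1 kept their sign but lost their call after the length correction. Eef1a1 lay between -0.11 and 0.17 when single libraries were left out. The fit after leaving out the 100 most abundant genes has no value for those genes. The block with median-of-ratios scaling was added after the data had been seen.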
